A study of Mus musculus with 4 samples.

Results

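The nuclear genes of respiratory complexes II and III and of ATP synthase (complex V) were examined in mouse hearts with and without Klf9, a Krüppel-like factor that binds DNA through zinc fingers. The members were the 44 of 17485 genes in the deposited table whose symbols name succinate dehydrogenase, the cytochrome bc1 complex, cytochrome c or ATP synthase, together with their assembly factors and the ATP synthase inhibitor. The rule uses gene symbols and no measured value. They comprised 8 genes of complex II, 15 of complex III, 19 of complex V, cytochrome c (Cycs) and Atp5s, which is named for ATP synthase but is not among its subunits. Total RNA of hearts from male mice, 8 weeks old and with free access to food and drink, was sequenced in 2 wild-type (WT) libraries and 2 libraries from Klf9 knockout (Klf9 KO) mice. The series was designed to ask how Klf9 bears on cardiac mitochondrial function, so the single comparison was knockout against wild type. The labels name no strain, knockout allele or Cre driver, and leave unsaid whether libraries of 1 group are from different animals. The p-values therefore rest on library-to-library spread alone, and in WT this may be purely technical. The Klf9 KO libraries differed in the Y-linked Kdm5d (4.01 and 0.01), so they are not repeats of 1 RNA sample.

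The 3 complexes share the inner mitochondrial membrane. Complex II oxidises succinate in the tricarboxylic acid cycle and passes the electrons to ubiquinone. Complex III moves them on to cytochrome c and pumps protons, and complex V uses the proton gradient to make ATP. Dedicated assembly factors insert flavin, iron-sulfur clusters and single subunits and are not part of the finished enzymes. The heart depends on this machinery for nearly all of its ATP, and its expression rises as the heart matures after birth.

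Since only ratios of 1 library to another were deposited, each library's value was recovered from those ratios, on a scale of unknown unit. No gene's level is therefore ranked against another's, sums over genes and ratios of genes are given only to compare libraries, and the sequencing depth is unknown. Klf9 stood at 74.9 and 58.8 in WT and at 2.66 and 1.99 in Klf9 KO (log2 fold change -4.35 ± 0.20, SE, n = 2 per group; limma adjusted p = 3.46e-06). Klf9 KO replicate 2 went against its labelled sex, with the Y-linked Kdm5d at 0.01, the smallest step, where the other 3 libraries had 3.42 to 4.01. Results are therefore also given without that library. Heart muscle markers were present in every library: their summed level over 8 genes was 34446 to 41883 in WT and 32970.1 to 35016 in Klf9 KO, with 2 of 8 lower and 0 higher. All 4 perinatal cardiomyocyte markers were higher (summed level 42.5 to 65.1 in WT, 1076 to 1630.0 in Klf9 KO), as were 3 of 5 fibroblast markers (364 to 508 against 783 to 866, with 1 lower) and 4 of 4 smooth muscle and pericyte markers (99.5 to 120.1 against 303 to 409.6). Of 4 macrophage markers 3 were lower (78.95 to 98.7 against 27.25 to 28.1), and none of the markers in these lists was at the smallest step in all 4 libraries. In whole tissue, fewer cells of a type and less RNA per cell cannot be told apart, and the part of these marker differences in the results below was not tested.

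Of the 44 genes, 14 fell in Klf9 KO hearts, 0 rose and 30 did not pass the test (limma on log2(value + 1), with p adjusted by Benjamini-Hochberg over the 12135 genes tested and a threshold of 0.05; at an unadjusted p below 0.05, 17 of the 44 were lower and 0 higher, where 20.3% of all genes were lower and 52.4% differed in either direction). Among all genes tested 17.0% fell and 27.7% rose (2061 and 3367 genes). With RLE scaling of the libraries these became 2618 and 2617 genes and the median of all genes moved from 0.12 to -0.015, while 19 of the 44 genes fell (21.6% of all genes), 8 of them subunits and 4 of them in complex V. The share that fell was 4 of 8 in complex II, 7 of 15 in complex III and 1 of 19 in complex V; Cycs and Atp5s made up the rest. Sorted by role, 8 of the 12 assembly factors fell but 4 of the 29 subunits, and in complex V 0 of 16 subunits passed (2 of them at an unadjusted p below 0.05). All 44 genes were above the filter on low values in all 4 libraries. The fold changes had a median of -0.47 over the 44 genes, -0.77 over the assembly factors and -0.40 over the subunits, beside 0.12 over all genes tested. The error differed between the roles as well: the SE ran from 0.17 to 0.23 for assembly factors and from 0.21 to 0.34 for subunits. Each SE is moderated with genes at a similar level and is not the spread of that gene alone. The plot of fold changes by role gives each of the 44 genes with its SE.

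**Figure D1:**
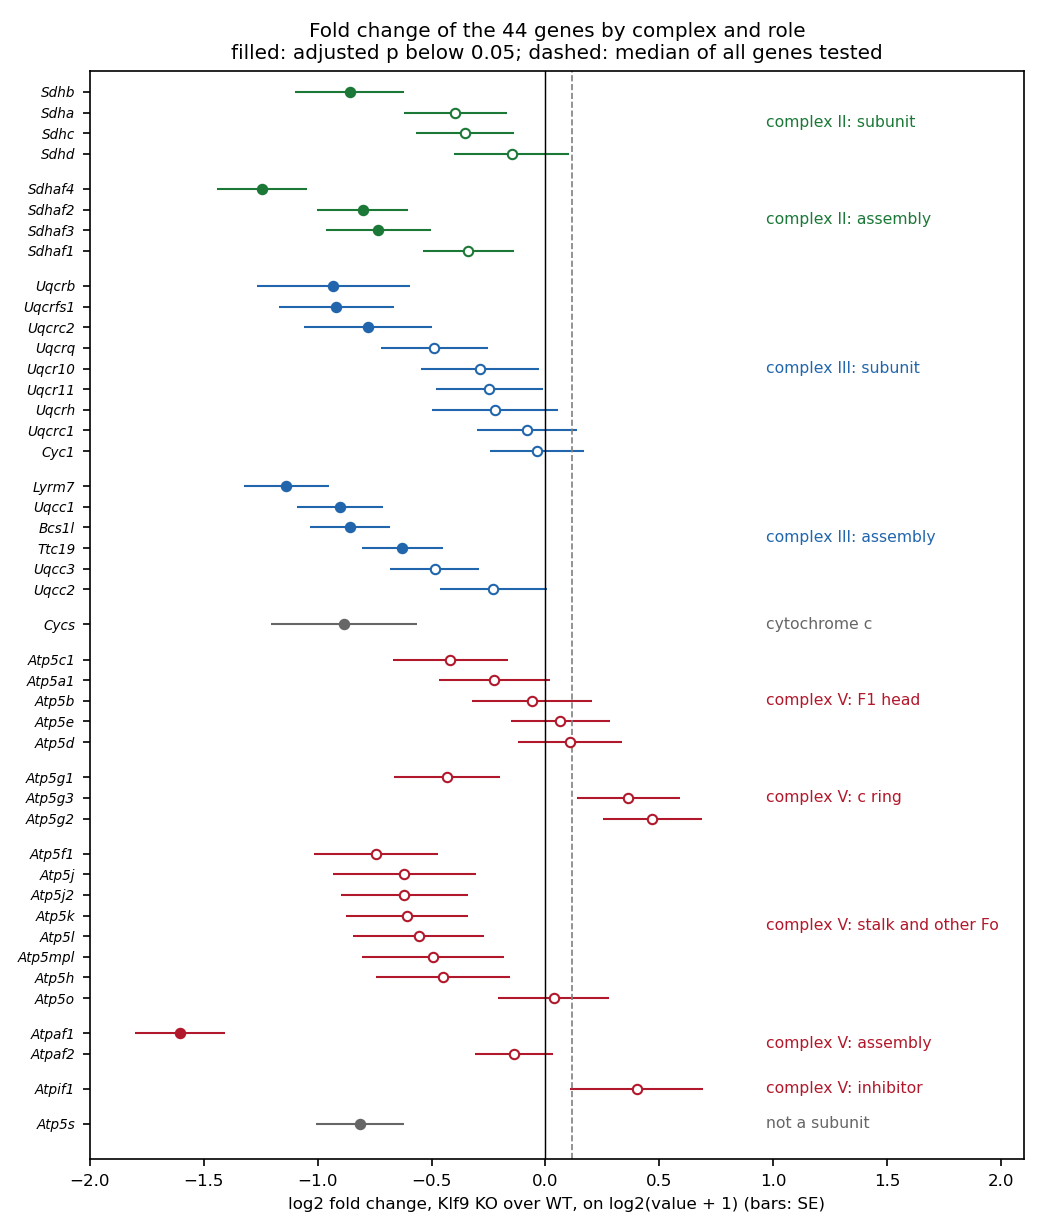
Log2 fold change (Klf9 KO over WT, on log2(value + 1), bars SE, n = 2 per group) of the 44 genes, grouped by complex and role; filled points passed limma at adjusted p below 0.05 and the dashed line is the median of all genes tested, 0.12. The 14 filled points lie between -1.60 and -0.63, and 0 of them belong to a subunit of complex V.

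Without Klf9 KO replicate 2, the library that went against its labelled sex, 4 of the 44 genes fell (Sdhaf4, Bcs1l, Lyrm7 and Atpaf1, all assembly factors), beside 9.06% of all genes tested. Without Klf9 KO replicate 1, 5 fell (Sdhaf2, Sdhaf4, Lyrm7, Uqcc1 and Atpaf1, again all assembly factors), beside 10.3%. In both cases the share of the 44 genes was near that of all genes. Leaving out either knockout library leaves the distances between the WT libraries as the only measure of spread. The fit moderates each gene's error with that of genes at a similar level. A lost call therefore does not show that the gene's own WT libraries lay far apart. Without WT replicate 1, 33 fell and 1 rose, beside 26.9% and 35.7% of all genes. Without WT replicate 2, 10 fell and 2 rose, beside 19.1% and 32.9%, and the median was -0.191 over the 44 genes and -0.128 over the subunits. Sdhaf4, Lyrm7 and Atpaf1 fell under each of these omissions. Each of the 14 genes had both Klf9 KO libraries below both WT libraries, and so did 30 of the 44; among all genes tested this held for 30.2%. The plot of the genes that fell gives their values in every library.

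**Figure D2:**
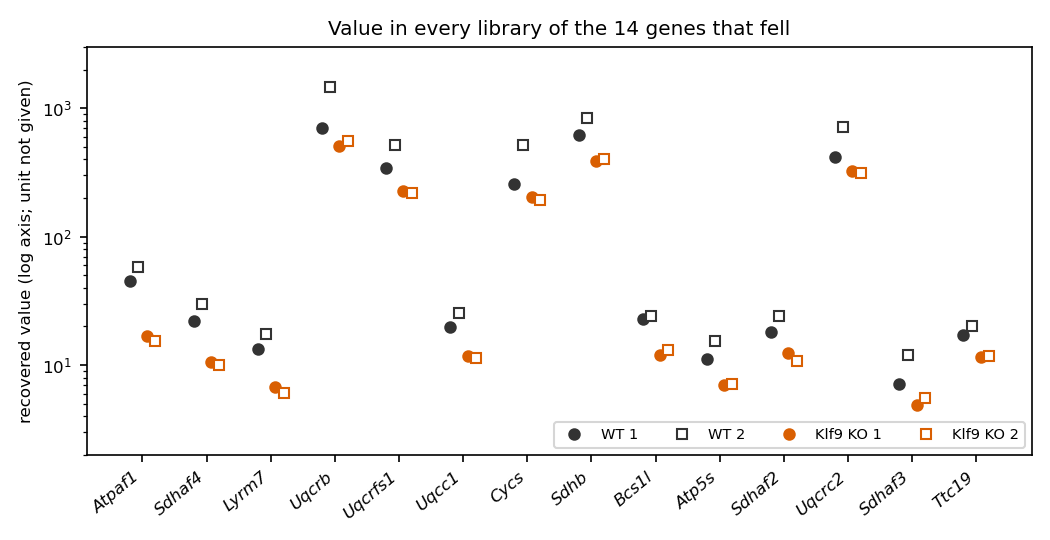
Recovered value (log axis, unit not given) of the 14 genes that fell, in each of the 2 WT (black) and 2 Klf9 KO (orange) libraries; circles are replicate 1 and squares replicate 2. Both orange points lie below both black points for each gene, and the distance between the black points is largest for Uqcrb (702 and 1466) and Cycs (256 and 522).

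In complex II the iron-sulfur subunit fell and the other 3 subunits did not pass. Sdhb, which carries the iron-sulfur clusters, stood at 617 and 838 in WT and at 389 and 404 in Klf9 KO, with a log2 fold change of -0.86 ± 0.24 (SE; limma adjusted p = 0.0182). The flavoprotein gene Sdha stood at 369 and 475 in WT and at 328 and 309 in Klf9 KO (-0.40 ± 0.23, adjusted p = 0.187). Sdhc, a membrane anchor, had 385 and 443 against 319 and 328 (-0.35 ± 0.21), and both knockout libraries were below both WT libraries. Sdhd, the second anchor, had 180.0 and 279 against 203 and 201, so that the knockout libraries lay between the WT libraries. Relative to Sdha in the same library, Sdhb was at 0.74 and 0.82 on the log2 scale in WT and at 0.25 and 0.39 in Klf9 KO. That difference was -0.46, against a pooled SD within groups of 0.080 (n = 2 per group). Gene pairs for such ratios were chosen after their values were seen. The call of Sdhb was lost without Klf9 KO replicate 1 (adjusted p = 0.198) and without Klf9 KO replicate 2 (adjusted p = 0.181).

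Of the 4 complex II assembly factors 3 fell. Sdhaf4, which brings the flavinylated subunit together with Sdhb, was at 21.9 and 30.0 in WT and at 10.6 and 9.96 in Klf9 KO (log2 fold change -1.24 ± 0.20; limma adjusted p = 0.00126). Sdhaf2, needed for attaching flavin to Sdha, was at 18.1 and 24.2 against 12.5 and 10.8 (-0.80 ± 0.20, adjusted p = 0.0111). Sdhaf3, a factor for the iron-sulfur subunit, was at 7.18 and 12.1 against 4.88 and 5.56 (-0.73 ± 0.23, adjusted p = 0.0297). In all of these genes the groups did not overlap. Sdhaf1, which also serves the iron-sulfur subunit, did not pass (23.1 and 31.0 against 20.2 and 21.7). The 4 calls in this complex became 8 without WT replicate 1, 3 without WT replicate 2, 2 without Klf9 KO replicate 1 and 1, Sdhaf4, without Klf9 KO replicate 2.

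In complex III 3 of 9 subunits and 4 of 6 assembly factors fell, among them the Rieske iron-sulfur protein and 3 factors known to act on it. Uqcrfs1, the Rieske protein, stood at 344 and 520 in WT and at 228 and 219 in Klf9 KO (log2 fold change -0.92 ± 0.25; limma adjusted p = 0.0167). Lyrm7, a chaperone that holds the Rieske protein before insertion, was at 13.3 and 17.4 against 6.72 and 6.07 (-1.14 ± 0.19, adjusted p = 0.00147). Bcs1l, the ATPase that carries it across the inner membrane, was at 23.0 and 24.1 against 11.9 and 13.2 (-0.86 ± 0.17, adjusted p = 0.00423). Ttc19, which helps clear its cleaved fragments, was at 17.1 and 20.2 against 11.5 and 11.8 (-0.63 ± 0.18, adjusted p = 0.0193). The calls of Uqcrfs1 and Ttc19 were lost without either knockout library (adjusted p = 0.112 and 0.159 for Uqcrfs1, 0.197 and 0.183 for Ttc19, without replicate 1 and replicate 2), and that of Bcs1l without Klf9 KO replicate 1 (adjusted p = 0.0881). The WT libraries of Bcs1l were close together, whereas those of Uqcrfs1 lay further apart than its knockout libraries.

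Factors for cytochrome b, the subunit of complex III encoded in mitochondrial DNA, were divided. Uqcc1 fell from 19.8 and 25.5 to 11.8 and 11.4 (-0.90 ± 0.19; limma adjusted p = 0.00504). Its partner Uqcc2 did not pass, at 96.8 and 138 against 90.1 and 107, with knockout libraries on either side of WT replicate 1. Uqcc3 was at 24.8 and 32.8 against 20.1 and 20.1 (-0.49 ± 0.20, adjusted p = 0.0713), without overlap.

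Of the core and small subunits of complex III, Uqcrc2 and Uqcrb passed near the threshold. Uqcrc1 was at 740 and 695 in WT and at 664 and 690.2 in Klf9 KO (-0.08 ± 0.22; limma adjusted p = 0.786). Uqcrc2 was at 417 and 718 against 325 and 312 (-0.78 ± 0.28, adjusted p = 0.0498). Cyc1, the cytochrome c1 subunit, was at 196 and 223 against 197 and 211 (-0.04 ± 0.21), and its groups overlapped. Uqcrb, a small ubiquinone-binding subunit, was at 702 and 1466 against 509 and 555 (-0.93 ± 0.34, adjusted p = 0.0492). Without WT replicate 2, which had the higher value in both, the log2 fold changes of Uqcrc2 and Uqcrb were -0.39 and -0.40 (adjusted p = 0.0572 and 0.0588). Both calls were also lost without either knockout library, with no filter, with a pseudocount of 0.1 and with the deposited ratios, and that of Uqcrb without robust moderation. Relative to Uqcrc1 in the same library, Uqcrc2 was at -0.83 and 0.05 on the log2 scale in WT and at -1.03 and -1.14 in Klf9 KO, a difference of -0.70 with a pooled SD of 0.44. Uqcrb relative to Cyc1 differed by -0.89, also with a pooled SD of 0.44. The 4 remaining small subunits, Uqcrq, Uqcrh, Uqcr10 and Uqcr11, did not pass, with log2 fold changes of -0.49, -0.22, -0.29 and -0.25, and the last 3 overlapped between the groups. The 7 calls of complex III became 13 without WT replicate 1, 5 without WT replicate 2, 2 without Klf9 KO replicate 1 and 2 without Klf9 KO replicate 2.

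Cycs, the mobile carrier between complexes III and IV, was at 256 and 522 in WT and at 202 and 193 in Klf9 KO (log2 fold change -0.88 ± 0.32; limma adjusted p = 0.0492). WT replicate 1 was nearer to the knockout libraries than to WT replicate 2, and without WT replicate 2 the log2 fold change was -0.37 (adjusted p = 0.0639). The call was lost under 5 further alternatives, the same as for Uqcrc2. Cycs has processed copies in the genome, and no source used here says how reads were divided among them. Atp5s, which encodes coupling factor B, was at 11.2 and 15.4 against 7.01 and 7.06 (-0.82 ± 0.19, adjusted p = 0.00887).

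In complex V the catalytic head did not pass in any of its 5 subunits. Atp5b, the catalytic beta subunit, was at 2264 and 3190.3 in WT and at 2583 and 2576 in Klf9 KO (-0.06 ± 0.26; limma adjusted p = 0.876). Both knockout libraries lay between the WT libraries. Atp5a1, the alpha subunit, was at 1476 and 1857 against 1425 and 1409 (-0.22 ± 0.24, adjusted p = 0.479). Atp5c1, the gamma subunit of the rotating shaft, was at 892 and 1265 against 790 and 800.0 (-0.42 ± 0.25). Atp5d and Atp5e, the delta and epsilon subunits, had log2 fold changes of 0.11 and 0.06, both negative after RLE scaling of the libraries (-0.04 and -0.09).

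Atpaf1, the assembly factor that binds the beta subunit, fell more than any other of the 44 genes. It was at 45.0 and 57.9 in WT and at 16.9 and 15.4 in Klf9 KO, with a log2 fold change of -1.60 ± 0.20 (SE; limma adjusted p = 0.000317). Atpaf2, its counterpart for the alpha subunit, was at 21.0 and 22.3 against 19.9 and 19.2 (-0.14 ± 0.17, adjusted p = 0.546). With all 4 libraries Atpaf1 was the only gene of complex V that fell, and this also held when WT replicate 2, Klf9 KO replicate 1 or Klf9 KO replicate 2 was left out. Without WT replicate 1, 10 genes of complex V fell.

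In the peripheral stalk and the other membrane subunits 0 of 8 genes passed. Both knockout libraries were below both WT libraries in 6 of 8, which among all genes tested held for 30.2%. Atp5f1, subunit b of the stalk, was at 209 and 358 in WT and at 161 and 165 in Klf9 KO (-0.74 ± 0.27; limma adjusted p = 0.0521). Atp5j, coupling factor 6, was at 614 and 1180 against 557 and 549.8 (-0.62 ± 0.31, adjusted p = 0.138). Atp5j2, subunit f, was at 722 and 1156 against 551 and 641 (-0.62 ± 0.28, adjusted p = 0.0993). In these 3 genes the knockout libraries were lowest and WT replicate 1 was the nearer of the WT libraries. Atp5k, Atp5l, Atp5h and Atp5mpl had log2 fold changes of -0.61, -0.56, -0.45 and -0.50. Atp5f1 passed with RLE or upper quartile scaling, a minimum of 5 or a replicate block. Atp5j2 and Atp5k passed with RLE scaling or the block, and Atp5j with the block. None passed under the other settings that kept every library. Atp5h was at 1032 and 1789 against 1010.1 and 979. Atp5o, the oligomycin sensitivity subunit at the top of the stalk, was at 995 and 1291 against 1114 and 1212, with the knockout libraries between the WT libraries and a log2 fold change of 0.04 whose sign turned under RLE (-0.12) and upper quartile (-0.02) scaling. WT replicate 2 exceeded WT replicate 1 in all 8 of these genes, by a median of 0.77 on the log2 scale. The knockout libraries differed by a median of 0.055 without regard to sign.

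The c ring, the proton-driven rotor in the membrane, is encoded by 3 genes whose products carry different targeting peptides but the same mature c subunit. Their values differed in direction. Atp5g1 was at 1632 and 1717 in WT and at 1168 and 1314 in Klf9 KO (-0.43 ± 0.23; limma adjusted p = 0.160). Atp5g2 was at 321 and 320.2 against 407 and 485 (0.47 ± 0.22, adjusted p = 0.110). Atp5g3 was at 836 and 814 against 1004 and 1123 (0.36 ± 0.23, adjusted p = 0.218). The groups did not overlap in any of the 3 genes: Atp5g1 was below, and Atp5g2 and Atp5g3 were above. Atp5g2 and Atp5g3 were the only 2 of the 44 genes with both knockout libraries above both WT libraries, which among all genes tested held for 45.2%. Each gene failed the test with all 4 libraries, but Atp5g2 passed without WT replicate 1 (0.47, adjusted p = 0.0290) and without WT replicate 2 (0.47, adjusted p = 0.0362), and not without Klf9 KO replicate 1 (0.60, adjusted p = 0.365) or replicate 2 (0.34, adjusted p = 0.653). Atp5g1 passed without WT replicate 1 (-0.47, adjusted p = 0.0315) and under no other omission of a library.

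Within each library, the ratio of Atp5g1 to Atp5g2 was at 2.35 and 2.42 on the log2 scale in WT and at 1.52 and 1.44 in Klf9 KO. The difference of -0.91 compares with a pooled SD within groups of 0.057 (n = 2 per group). For Atp5g1 to Atp5g3 the values were 0.97 and 1.08 against 0.22 and 0.23, a difference of -0.80 with a pooled SD of 0.056. For Atp5g3 to Atp5g2 the difference was -0.11 (pooled SD 0.048). These ratios do not depend on the scaling between libraries, and were formed after the values were seen, so no test is attached. The coding parts of these genes are alike, and no source used here says how shared reads were assigned.

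**Figure D3:**
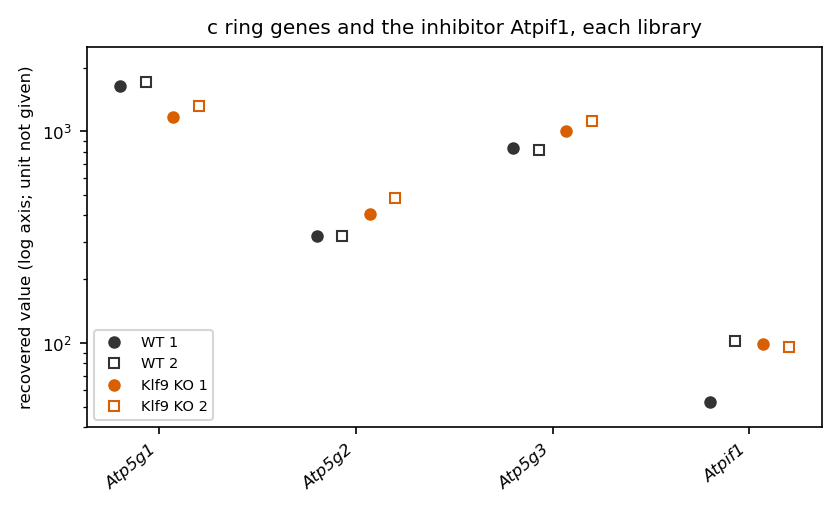
Recovered value (log axis, unit not given) of the c ring genes Atp5g1, Atp5g2 and Atp5g3 and of the inhibitor Atpif1 in each of the 2 WT (black) and 2 Klf9 KO (orange) libraries; circles are replicate 1 and squares replicate 2. The orange points of Atp5g1 lie below the black ones and those of Atp5g2 and Atp5g3 above, while for Atpif1 only WT replicate 1, at 52.6, stands apart.

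Atpif1, which blocks ATP hydrolysis by complex V, was at 52.6 and 102 in WT and at 98.5 and 95.5 in Klf9 KO (0.40 ± 0.29; limma adjusted p = 0.291). The knockout libraries were level with WT replicate 2, and WT replicate 1 was the lowest. Without WT replicate 2 the gene passed (log2 fold change 0.87, adjusted p = 0.000391), and without WT replicate 1 the sign turned (-0.07, adjusted p = 0.705).

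The promoters of the c ring genes are shown because these 3 genes differed in direction. Those of Bcs1l and Cycs are shown because both genes fell and hold a CACCC motif. Krüppel-like factors are known to bind this type of sequence. The choice used the calls, so these promoters cannot show whether the motif goes with a fall. Atp5j2, which also holds the motif, did not pass (limma adjusted p = 0.0993) and is not shown. Each is the 250 bases before the start in the RefSeq promoter table (GRCm38.p6), written 5′ to 3′ on the gene's strand. Motif matches that lie wholly within these bases are in capitals. Atp5g1 lies at chr11:96075632-96075881 on the minus strand, Atp5g2 at chr15:102671048-102671297 on the minus strand and Atp5g3 at chr2:73911327-73911576 on the minus strand. Bcs1l lies at chr1:74588039-74588288 on the plus strand and Cycs at chr6:50566570-50566819 on the minus strand.
Atp5g1: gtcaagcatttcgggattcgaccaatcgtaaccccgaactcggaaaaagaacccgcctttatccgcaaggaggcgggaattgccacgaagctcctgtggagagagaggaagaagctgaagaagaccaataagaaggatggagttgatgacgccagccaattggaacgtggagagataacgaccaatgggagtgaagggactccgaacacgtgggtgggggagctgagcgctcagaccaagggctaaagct
Atp5g2: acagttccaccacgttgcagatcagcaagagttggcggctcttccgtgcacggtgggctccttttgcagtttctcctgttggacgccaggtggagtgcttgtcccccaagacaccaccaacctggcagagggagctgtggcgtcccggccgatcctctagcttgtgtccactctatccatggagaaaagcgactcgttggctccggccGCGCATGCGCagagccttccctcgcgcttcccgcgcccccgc
Atp5g3: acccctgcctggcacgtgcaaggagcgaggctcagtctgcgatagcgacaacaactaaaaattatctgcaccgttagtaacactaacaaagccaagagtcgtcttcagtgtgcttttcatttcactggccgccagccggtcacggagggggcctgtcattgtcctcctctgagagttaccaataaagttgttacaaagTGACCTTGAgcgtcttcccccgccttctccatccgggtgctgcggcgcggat
Bcs1l: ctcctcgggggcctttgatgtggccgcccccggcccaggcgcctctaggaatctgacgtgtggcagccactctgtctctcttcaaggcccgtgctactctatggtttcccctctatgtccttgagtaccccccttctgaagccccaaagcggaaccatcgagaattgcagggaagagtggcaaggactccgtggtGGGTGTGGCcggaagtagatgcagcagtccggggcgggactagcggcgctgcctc
Cycs: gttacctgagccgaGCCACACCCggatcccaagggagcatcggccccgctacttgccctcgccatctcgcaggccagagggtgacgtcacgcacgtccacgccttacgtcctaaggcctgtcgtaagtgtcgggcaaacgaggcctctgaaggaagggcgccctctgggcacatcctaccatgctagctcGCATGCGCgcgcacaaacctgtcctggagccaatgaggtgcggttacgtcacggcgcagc

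Capitals mark the NRF1 palindrome in Atp5g2, an ERR element in Atp5g3, a CACCC motif in Bcs1l, and a CACCC motif and a shorter NRF1 motif in Cycs. Motifs were searched as exact letters on both strands of the 300 bases around each start, for 37 of the 44 genes that matched the table. The CACCC motif GGGTGTGGC was found in 3 genes (Atp5j2, Bcs1l and Cycs) and in 1.35% of all 32851 promoters (1.83% of the 9672 genes tested that matched the table). Of those 3, Bcs1l and Cycs fell and Atp5j2 did not pass. Atpaf1, which fell most of the 44 genes, held none of the motifs searched. NRF1 is a known activator of respiratory genes, and its palindrome was found in 3 genes (Atp5g2, Atp5k and Uqcrc1) and in 0.971% of promoters (2.33% of tested genes). Its shorter form GCGCATGC, which the palindrome contains, was found in 8 genes and in 2.71% of promoters (5.99% of tested genes). Of those 8, Cycs, Sdhb and Ttc19 fell and the other 5 did not pass. The ERR element TCAAGGTCA was found in Atp5g3 and Sdhd (0.423% of promoters, 0.331% of tested genes). The YY1 core AAGATGGC was found in 5 genes (2.75% and 5.33%) and the GC box GGGGCGGGG in 9 of the 37 (11.4% and 25.4%), a share close to that of tested genes. Of those 9, Sdhb, Ttc19 and Atp5s fell and the others did not pass. The GC box of Atp5g2 crosses the start and is not in capitals. A match is a description of letters and not evidence of binding.

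Genes of the pathway that the names do not cover were read beside the members. Further genes of ATP synthase numbered 4. Among them, Tmem70, an assembly factor for the c ring, fell from 44.4 and 70.3 to 26.5 and 27.4 (-1.03 ± 0.23; limma adjusted p = 0.00748). Tmem242, also an assembly factor, fell (-0.76 ± 0.21), and the subunit gene Usmg5 (-0.74 ± 0.35, adjusted p = 0.118) and the assembly factor Fmc1 (0.09 ± 0.19) did not pass. Among 4 genes of nucleotide and phosphate exchange and energy transfer, Ckmt2, the mitochondrial creatine kinase of striated muscle, fell from 1369 and 2234 to 442 and 304 (-2.25 ± 0.30), while the carriers Slc25a3, Slc25a4 and Slc25a5 did not pass. Of 5 neighbours of complex II in the tricarboxylic acid cycle, Suclg2 and Sucla2 fell and Cs, Fh1 and Suclg1 did not pass. Of 6 genes used as markers of mitochondrial content 1 fell, the chaperonin Hspd1 (-0.84 ± 0.25), and 5 had a negative fold change (median -0.29). Their summed level was 1085 and 1345 in WT and 912 and 926 in Klf9 KO. Of the outer membrane channels among them, Vdac1 (-0.40 ± 0.21) and Vdac3 (-0.47 ± 0.25) had both knockout libraries below both WT libraries without passing. The part of mitochondrial content in the results was not tested.

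The 3 complexes were compared with each other and with complexes I and IV by their counts and medians. The median log2 fold change was -0.56 for complex II, -0.49 for complex III and -0.42 for complex V. For the subunits alone it was -0.37, -0.29 and -0.43, and for the assembly factors alone -0.77, -0.74 and -0.87, the last over 2 genes. The order of the complexes by their subunits depended on the WT library: against WT replicate 1 the median log2 ratios were -0.22 and -0.24 in complex II, -0.16 and -0.10 in complex III and -0.075 and -0.072 in complex V, and against WT replicate 2 they were -0.50 and -0.55, -0.67 and -0.58, and -0.62 and -0.53. Without WT replicate 2 the medians over all genes of a complex were -0.324 in complex II, -0.292 in complex III and -0.059 in complex V. Of the 3, complex V spread most over all its genes. The SD was 0.49 over its 19 genes, 0.36 in complex II and 0.35 in complex III. For the subunits alone the SD was 0.38 in complex V, 0.30 in complex II and 0.35 in complex III. Over all tested genes of complexes I and IV it was 0.33 and 0.96. Of 47 tested complex I genes 21 fell and 0 rose (median -0.65). Of 16 tested complex IV genes 3 fell and 2 rose (median -0.29). Among all genes tested 17.0% fell and 27.7% rose. The lists are unlike: that of complex I holds every Nduf gene, assembly factors included. That of complex IV holds the genes named Cox4 to Cox8, with tissue isoforms and without assembly factors. Whether the complexes differ was not tested, since the genes of a complex are not replicates.

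The 4 deposited pairwise ratios show how much depends on the WT library used. They share libraries and are not 4 independent measurements. Over the 19 genes of complex V the median log2 ratio was -0.074 and -0.076 against WT replicate 1 and -0.56 and -0.40 against WT replicate 2. For complex II the corresponding medians were -0.40 and -0.31 against -0.79 and -0.84, and for complex III -0.31 and -0.30 against -0.81 and -0.71. For the 12 assembly factors they were -0.56 and -0.64 against -0.99 and -0.99, so that this group was lower whichever pair was read. All genes tested had medians of 0.15 and 0.19 against 0.10 and 0.14. WT replicate 2 was above WT replicate 1 in 41 of the 44 genes, and in 6362 of the 12135 genes tested. Without regard to sign, the median gap over the 44 genes was 0.44 between the WT libraries and 0.072 between the knockout libraries. Over all genes tested these gaps were 0.26 and 0.13. The WT libraries were further apart than the knockout libraries in 8555 of the 12135 genes tested and in 39 of the 44. The exceptions include all 3 genes of the c ring, where the WT libraries were within 0.073 of each other.

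**Figure D4:**
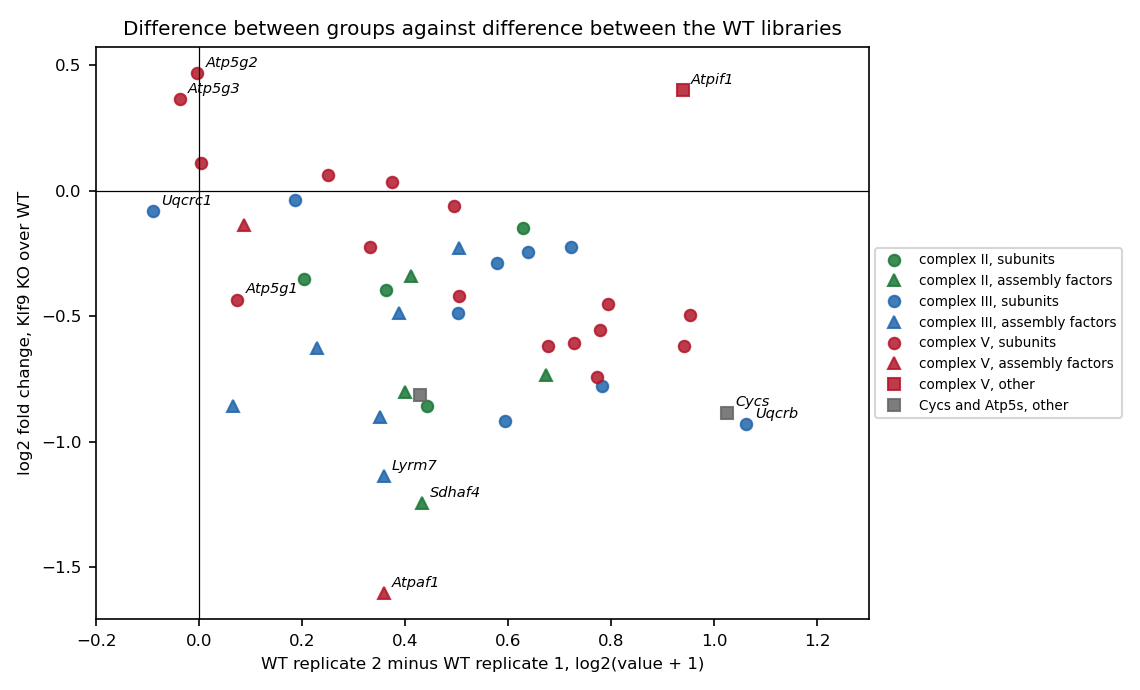
Log2 fold change (Klf9 KO over WT) of the 44 genes against the difference between the 2 WT libraries (replicate 2 minus replicate 1, log2(value + 1)); colours are complexes, circles subunits, triangles assembly factors and squares other genes. Both axes use the WT libraries and so share measurements. Their Spearman correlation was -0.325 over the 44 genes and -0.375 over all tested genes with a length, and its cause was not tested. Atpaf1, Sdhaf4 and Lyrm7 have the lowest fold changes, with WT differences of 0.36 to 0.43. Uqcrb and Cycs have WT differences above 1.

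The difference between the WT libraries moved with transcript length. Over 232 tested genes whose longest coding transcript has up to 750 bases, WT replicate 2 was above replicate 1 by a median of 0.47, and over 7739 genes with more than 2500 bases it was below by a median of 0.061. The share of genes that fell was 25.0% in the short group and 14.4% in the long one. The members are short, with a median of 1465 bases against 3161 over all tested genes with a length, and 13 of the 44 have up to 750 bases. By role, the median length was 2410 bases for the assembly factors and 1142 for the subunits, and 824 for the subunits of complex V. Over all tested genes with a length, the Spearman correlation of length with log2 fold change was 0.176. Over the 44 genes it was -0.289, so that among them the longer genes tended to have the lower fold changes. The part of length in the differences between the groups was not tested.

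In the authors' deposited table, 3 of the 44 genes had q below 0.001 and a log2 ratio of -1 or lower, where 8.77% of its 16254 genes with a q-value did. They were Sdhaf4 (-1.31), Lyrm7 (-1.30) and Atpaf1 (-1.65), 1 assembly factor of each complex, and 0 had a log2 ratio of at least 1 (14.3% of those genes did). At q below 0.001 alone the authors' deposited table called 41 of the 44, beside 57.6% of its genes with a q-value, a count that includes the c ring genes Atp5g1 (-0.43), Atp5g2 (0.48) and Atp5g3 (0.36), which did not pass limma. No source used here says how replicates entered the authors' test.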

How the data were processed

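RNA-seq of 4 heart libraries, 2 WT and 2 Klf9 KO, was deposited as 1 table. Per the file headers it holds the authors' log2 ratios, p-values and false discovery rates for the 4 pairs of libraries and a log2 ratio, p-value and q-value for the groups. The pairwise p-values and false discovery rates, which reach 1.0014, were not used. No aligner, genome build or unit of the underlying expression values is named in the sources used here. The deposited log2 ratios of each gene were resolved into whole-number multiples of a step of 0.01, which gave a value, treated as a score, for each library; where a gene's 4 values had a common factor it cannot be recovered, so the level can be too low while the ratios hold. A value of 0.01 can stand for 0. The recovered values sum to 426032 and 489534 in WT and to 409359 and 418974 in Klf9 KO, and the depth is unknown.

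Genes at 1 or more in at least 2 libraries were tested with limma 3.58.1 (R 4.3.3) on log2(value + 1), which understates the fold changes of low genes. Errors were moderated robustly and with a trend in level, except that the deposited ratios were fitted without the trend. Benjamini-Hochberg adjustment was over all genes tested. Groups came from the labels. All 44 members were eligible to be named, and other genes came from lists. The members and lists were chosen with earlier results of these data known. Median lengths used the longest coding transcript in GENCODE vM21. The fit was tested on simulated data. The alternatives tried were scaling by RLE or by upper quartile, no filter or a minimum of 5, a pseudocount of 0.1, the deposited ratios, no robust moderation, a replicate block and leaving out each library.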

Additional observations from a re-analysis of the deposited data

How the results depend on the processing

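Depth was unknown, so counting error could not be given, and with 2 libraries a group each result rests on few samples; leaving out 1 library leaves a lone sample that is assumed to vary like the other group. Of the 14 calls, Atpaf1, Lyrm7 and Sdhaf4 held under all 12 alternatives. Leaving out each library in turn, the number of genes that fell ranged from 4 to 33 and that rose from 0 to 2; by group it ranged from 1 to 8 in complex II, 2 to 13 in complex III, 1 to 10 in complex V, 0 to 20 for subunits and 4 to 11 for assembly factors. The medians then ranged from -0.709 to -0.191 over all 44 genes, -0.577 to -0.128 for subunits, -0.789 to -0.324 in complex II, -0.738 to -0.292 in complex III, -0.471 to -0.059 in complex V and -0.946 to -0.558 for assembly factors. With RLE scaling complex V had 4 and the subunits 8 genes that fell, and the medians were -0.640 in complex III, -0.571 in complex V, -0.906 for assembly factors and -0.015 over all genes. Complex V had 2 with upper quartile scaling and 2 with the minimum of 5. The subunits had 2 with no filter, 2 with a pseudocount of 0.1 and 2 with the deposited ratios. Over these 5 settings 10.3% to 19.1% of all genes fell. The sign turned with RLE scaling for Atp5d (-0.04), Atp5e (-0.09) and Atp5o (-0.12), and with upper quartile scaling for Atp5o (-0.02). When libraries were left out in turn, the value crossed 0 for Sdhd (-0.46 to 0.17), Cyc1 (-0.13 to 0.05; 0.01 without Klf9 KO replicate 1), Uqcrh (-0.58 to 0.14), Uqcr10 (-0.58 to 0.00), Uqcr11 (-0.56 to 0.07), Uqcc2 (-0.48 to 0.02) and Atp5b (-0.31 to 0.19), each highest without WT replicate 2. It also crossed 0 for Atp5d (-0.01 to 0.23), Atp5e (-0.06 to 0.19), Atp5o (-0.15 to 0.22) and Atpif1 (-0.07 to 0.87). None of the values with a turned sign passed the test, and the cause was not tested. Klf9 ranged from -4.52 to -4.18 when libraries were left out. Libraries with the same replicate number share only a number (correlation of their deviations -0.035 over 12135 genes); with a replicate block 18 of the 44 genes fell (18.7% of all genes), 8 of them subunits and 5 in complex V.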
